A study of Mus musculus with 9 samples.

Results

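The sterol sensing, uptake and efflux genes examined here are 8 genes of cholesterol control, taken by name from the 31232 genes listed for 9 libraries of bEnd.3 cells: Srebf1, Srebf2, Scap, Insig1, Insig2, Mylip, Abca1 and Abcg1. All 8 were found once and all 8 had enough counts to be among the 15774 genes tested. bEnd.3 is a mouse brain endothelial line immortalised with the polyoma virus middle T antigen. All groups shared that background, and all were grown on glass and put under flow in a parallel-plate chamber. The Vortex group (n = 3 libraries) had a vortex of 0.5 to 2 dyne/cm2 and stands, per the labels, for a late intracranial aneurysm. The HSS group (n = 3) had laminar flow of 20 dyne/cm2 and stands for an early aneurysm. The PSS group (n = 3) had laminar flow of 10 dyne/cm2 and stands for normal vessels of the brain. The sources used here do not give the length of exposure. Nothing in the labels says that the libraries of a group came from separate cultures, and RNA is described as mixed, so p-values measure the spread between these libraries, which may be technical.

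Cells hold their cholesterol level by a feedback loop in the membrane of the endoplasmic reticulum. SREBP proteins, encoded by Srebf1 and Srebf2, are made as membrane-bound precursors that SCAP carries to the Golgi for cleavage when sterol is low, and the freed part switches on genes of sterol and fatty acid synthesis and of lipoprotein uptake. When sterol is high, INSIG proteins hold SCAP back. Insig1 is itself a target of SREBP, whereas Insig2 is not known to depend on it in the same way. Excess sterol also gives rise to oxysterols, which activate the LXR nuclear receptors. LXR switches on the cholesterol exporters Abca1 and Abcg1, the gene Srebf1, and Mylip, which encodes the ubiquitin ligase IDOL that sends the receptor for low density lipoprotein to degradation. In endothelium ABCA1 and ABCG1 pass cholesterol to acceptors in the blood and are known to support nitric oxide production.

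The control regions of Abca1 and Srebf1 are shown because both genes are known LXR targets, of which Abca1 passed the test in HSS against PSS and Srebf1 did not. The sequences are RefSeq promoter windows of build GRCm38.p6, matched by symbol, each 300 bases long and running from 250 bases before to 50 after an annotated start site. Of the 8 genes, 7 had at least 1 window, 12 windows in all. The counts were made on GRCm39, so the coordinates do not carry over to them. Capitals mark a match to a pair of direct repeats with the spacing that LXR binds, searched as GGTNA, any 5 bases and GGTNA again, here lying on the opposite strand. The Abca1 window lies at chr4:53159846-53160145 on the minus strand, and the Srebf1 window, the third of 3 listed for that gene, at chr11:60210422-60210721 on the minus strand.
Abca1: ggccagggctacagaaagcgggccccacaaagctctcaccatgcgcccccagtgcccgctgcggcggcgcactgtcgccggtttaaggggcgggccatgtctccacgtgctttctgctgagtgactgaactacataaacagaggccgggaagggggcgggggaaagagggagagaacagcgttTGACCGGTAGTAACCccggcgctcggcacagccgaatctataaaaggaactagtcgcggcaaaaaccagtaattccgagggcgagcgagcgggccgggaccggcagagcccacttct
Srebf1: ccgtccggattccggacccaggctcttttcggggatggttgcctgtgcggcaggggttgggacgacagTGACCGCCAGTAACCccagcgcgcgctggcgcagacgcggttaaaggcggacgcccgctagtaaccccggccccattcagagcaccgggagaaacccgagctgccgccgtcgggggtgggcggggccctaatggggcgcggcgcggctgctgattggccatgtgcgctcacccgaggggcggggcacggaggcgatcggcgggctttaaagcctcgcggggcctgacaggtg
The match began 67 bases before the start site in Abca1 and 182 bases before it in this Srebf1 window. On its own strand it reads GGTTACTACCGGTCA in Abca1 and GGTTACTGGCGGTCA in Srebf1. The search covered both strands, and 0.718% of all 32851 windows in the table held such a match. No other window of the 8 genes did. Counts were made per gene, so those of Srebf1 do not separate transcripts from its 3 windows.

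Srebf2 and Insig1, the pair that was lower in HSS than in PSS, are shown next, with capitals for the CCAAT box (CCAAT), the GC box (GGGCGG) and the E-box (CACGTG), each searched on both strands with no overlap between matches. CCAAT is bound by NF-Y, GGGCGG by Sp1, and both factors are known partners of SREBP. The Insig1 window lies at chr5:28071162-28071461 on the plus strand and the Srebf2 window at chr15:82147019-82147318 on the plus strand.
Insig1: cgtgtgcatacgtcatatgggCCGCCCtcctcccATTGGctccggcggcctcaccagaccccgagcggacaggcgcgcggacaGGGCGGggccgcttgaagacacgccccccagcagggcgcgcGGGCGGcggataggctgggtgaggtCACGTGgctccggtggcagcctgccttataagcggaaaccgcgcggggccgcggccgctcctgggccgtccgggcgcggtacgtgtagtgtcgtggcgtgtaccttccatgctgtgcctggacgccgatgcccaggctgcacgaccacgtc
Srebf2: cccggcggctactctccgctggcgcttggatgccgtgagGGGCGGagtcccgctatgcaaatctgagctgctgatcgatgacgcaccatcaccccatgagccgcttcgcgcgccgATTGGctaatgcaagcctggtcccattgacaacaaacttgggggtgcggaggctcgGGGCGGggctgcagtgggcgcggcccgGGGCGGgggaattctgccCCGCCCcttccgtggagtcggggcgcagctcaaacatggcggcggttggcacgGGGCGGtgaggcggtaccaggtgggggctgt
Both windows held a CCAAT box and GC boxes, as did 37.4% and 35.7% of all windows, and the Insig1 window also held an E-box, found in 7.15%. TCACNCCAC, a form of the sterol regulatory element, was in 1.24% of all windows and in 0 of the 12 windows of the 8 genes. Only exact matches were counted, so other forms of the element, or copies outside these windows, were not looked for. These matches describe letters and say nothing of whether a factor was bound.

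Counts per library ranged from 17407217 to 22965802, and the 8 genes had 142 to 15210 counts per library. HSS libraries lay closest together (Pearson r of log2 CPM across genes 0.992 to 0.993, where CPM is the usual count per library total, on the counts-per-million scale, after TMM scaling), then PSS (0.977 to 0.992) and Vortex (0.852 to 0.962), where genes are not independent replicates. Vortex replicate 2 stood apart from the other Vortex libraries and was singled out after its values were seen. Counts of calls and part of the fold changes are also given without it, which leaves Vortex replicates 1 and 3. Group differences of the gene ratios below include it. The endothelial marker list summed to 753 to 6493 CPM in Vortex, with the highest value in Vortex replicate 2, to 368 to 375 CPM in HSS and to 2255 to 2823 CPM in PSS. Cdh5, the endothelial cadherin, was at 329, 1298 and 381 CPM in Vortex. It was at 126, 119 and 120 CPM in HSS, against 551, 577 and 450 CPM in PSS. Cldn5 is a claudin that seals the junctions of brain vessels. It had 13, 7791 and 62 counts in Vortex, 2, 0 and 0 in HSS and 1162, 1202 and 1110 in PSS. Fewer cells of a type and less RNA per cell cannot be told apart in such bulk samples. A gene passed where its p in edgeR's quasi-likelihood F test, adjusted over all 15774 tested genes by Benjamini and Hochberg's method, was under 0.05. Every adjusted p below is from edgeR. The spread of each gene was estimated over all 9 libraries, so a large spread in Vortex also widens the error of HSS against PSS. In turn, a small spread in the third group narrows the error of a comparison with Vortex. The median SD of log2 CPM over tested genes was 0.59 in Vortex, 0.08 in HSS and 0.24 in PSS.

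On the per-length scale, FPKM, which allows genes to be compared with each other, the leading gene differed between groups. In Vortex Srebf2 had the highest mean, 45.8 ± 9.85 FPKM (SD, n = 3, as for each value here), followed by Insig2 at 38.7 ± 31.0, Insig1 at 29.7 ± 8.43, Srebf1 at 17.2 ± 9.85 and Abca1 at 16.0 ± 9.94. Each of these overlapped the next in Vortex, except that Srebf2 and Insig1 were apart. Scap (7.12 ± 3.47), Abcg1 (4.80 ± 1.10) and Mylip (3.73 ± 2.19) came last there. The lead of Srebf2 in Vortex rested on replicate 2, where Insig2 was at 4.15 FPKM. In Vortex replicates 1 and 3 Insig2 was the highest of the 8 genes, at 64.2 and 47.8 FPKM. Srebf2 was at 38.5 and 41.9 FPKM in those libraries. In HSS Abca1 led at 71.8 ± 1.40 FPKM, ahead of Insig2 at 29.0 ± 0.337, Insig1 at 20.4 ± 1.13, Srebf1 at 19.9 ± 0.840 and Srebf2 at 13.4 ± 0.456. Insig1 and Srebf1 overlapped in HSS, and Scap (6.73 ± 0.546), Mylip (5.77 ± 0.338) and Abcg1 (3.53 ± 0.334) were lowest. In PSS Insig1 was highest at 59.9 ± 17.8 FPKM, followed by Srebf2 at 38.6 ± 8.02, Srebf1 at 19.0 ± 3.80, Abca1 at 17.1 ± 3.59 and Insig2 at 12.1 ± 3.02. In PSS the ranges of Insig1 and Srebf2 overlapped, as did those of Srebf1, Abca1 and Insig2, and Scap (5.24 ± 1.06), Mylip (4.31 ± 0.242) and Abcg1 (2.18 ± 0.185) were lowest.

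**Figure D1:**
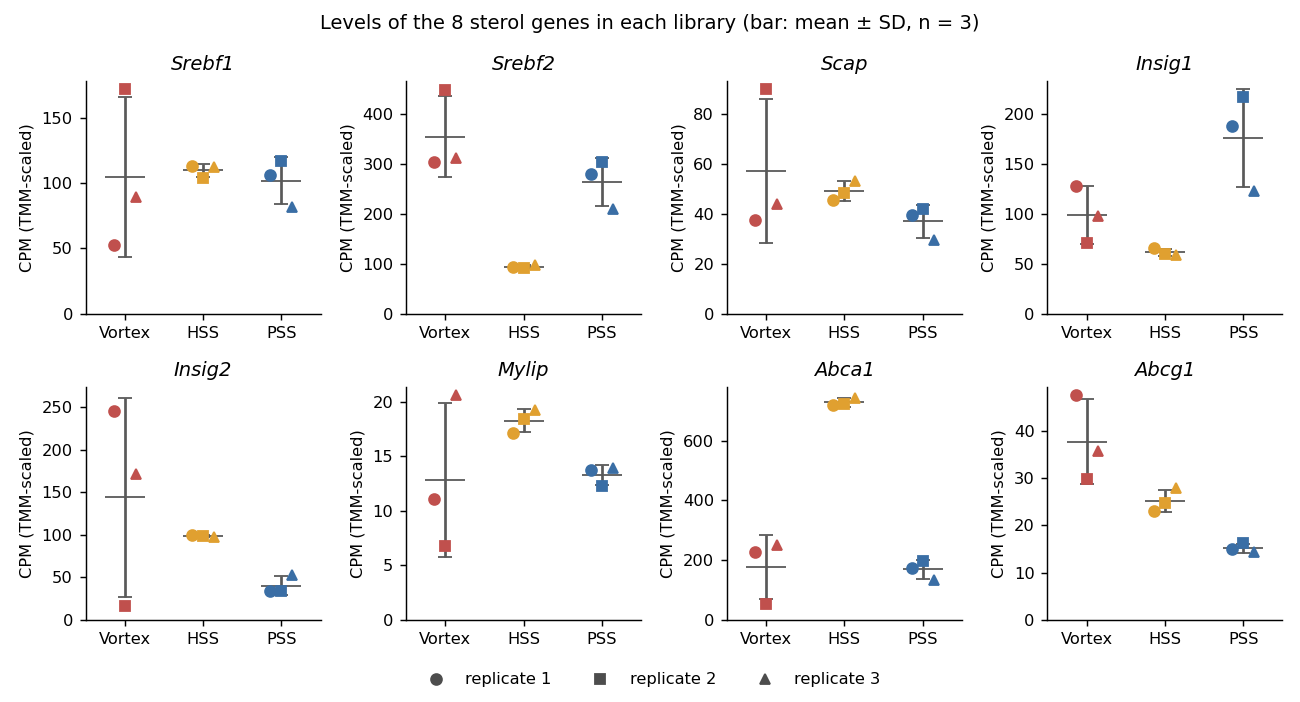
CPM after TMM scaling (vertical axes, each from 0) of the 8 genes in each of the 9 libraries, with the mean and SD of each group as bars and the replicates as symbols. The HSS libraries of Srebf2 sit between 92.1 and 98.2 CPM and those of Abca1 between 717 and 744, apart from both other groups, and Vortex replicate 2 is the highest Vortex library for Srebf1, Srebf2 and Scap and the lowest for Insig1, Insig2, Mylip, Abca1 and Abcg1.

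HSS against PSS addresses the step from normal to raised laminar shear. Srebf2, the SREBP that drives sterol synthesis, and Insig1 were lower in HSS, and Abca1, which exports cholesterol to apolipoprotein A-I, was higher. Srebf2 was at 93.1, 92.1 and 98.2 CPM in HSS replicates 1, 2 and 3, against 279, 303 and 210 CPM in PSS. Every HSS library lay below every PSS library. The log2 fold change was -1.48 ± 0.22 (SE, adjusted p = 0.00524). Insig1 was at 65.6, 60.3 and 59.1 CPM in HSS, against 188, 218 and 122 CPM in PSS. Its groups did not overlap either, although PSS replicate 3 was well under the other PSS libraries, and the log2 fold change was -1.51 ± 0.28 (adjusted p = 0.0134).

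Abca1 was at 717, 722 and 744 CPM in HSS, against 175, 196 and 134 CPM in PSS. The lowest HSS library was above every PSS library, and the log2 fold change was 2.11 ± 0.48 (adjusted p = 0.0301). Abcg1, which exports cholesterol to high density lipoprotein, was at 23.2, 24.7 and 27.8 CPM in HSS, against 14.9, 16.3 and 14.4 CPM in PSS. The groups were apart, but the log2 fold change of 0.73 ± 0.21 did not pass (adjusted p = 0.071). Markers of macrophages, cells rich in both exporters, had a summed level of 39.2 to 43.4 CPM in HSS and 11.3 to 13.1 CPM in PSS over 9 of 10 markers found in the table. The list was split. Csf1r, the receptor for macrophage growth factor, was at 17.3, 15.8 and 18.9 CPM in HSS, against 1.47, 1.36 and 2.79 CPM in PSS, Cd14 at 13.7 CPM or more in HSS, against 3.36 to 4.83 CPM in PSS, and Mrc1 at 3.00 CPM or more in HSS, against 0.243 to 0.758 CPM in PSS. Cd68 was at 5.26 to 5.71 CPM in HSS and 3.69 to 4.96 CPM in PSS, and Lyz2 at 0.561 to 0.802 CPM in HSS and 0.556 to 1.09 CPM in PSS. In each of the 9 libraries Ptprc, the pan-leukocyte phosphatase, had 0 or 1 count, Itgam, an integrin of myeloid cells, 0 to 3, Fcer1g 0 to 6 and Adgre1 0 to 7. The part of these markers' source in the exporters' values was not tested.

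Insig2 had the opposite order of levels to Insig1. It was at 99.9, 98.3 and 97.5 CPM in HSS, against 34.1, 33.4 and 53.2 CPM in PSS. The HSS libraries were nearly alike and all above PSS, yet the log2 fold change of 1.29 ± 0.72 did not pass (adjusted p = 0.323). Its SD on the log2 scale was 2.15 in Vortex, 0.02 in HSS and 0.38 in PSS, and all 3 enter the error. Mylip was at 17.1, 18.4 and 19.2 CPM in HSS, against 13.7, 12.3 and 13.9 CPM in PSS. Its groups did not overlap and its log2 fold change was 0.46 ± 0.35 (adjusted p = 0.496). Scap was at 45.5, 48.3 and 53.3 CPM in HSS and 39.6, 42.1 and 29.6 CPM in PSS, again with no overlap and with no call (0.40 ± 0.32, adjusted p = 0.514). Srebf1, the SREBP that favours fatty acid synthesis, was at 113, 104 and 112 CPM in HSS, against 106, 117 and 82.0 CPM in PSS. The groups overlapped, and the log2 fold change was 0.11 ± 0.37 (adjusted p = 0.902).

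In counts, 1 of the 8 genes was higher, 2 were lower and 5 did not pass, where 7.87% of all tested genes were called, 4.18% higher and 3.7% lower. HSS and PSS did not overlap for 5 genes that were higher and 2 that were lower, where 29.9% and 26.3% of all tested genes were apart in those directions. Without Vortex replicate 2, whose spread enters this test, 3 of the 8 were higher and 2 lower, where 29.1% of all tested genes were called, 15.4% higher and 13.7% lower. Insig2 (adjusted p = 0.000936) and Abcg1 (adjusted p = 0.00526) passed as well, and Scap (0.0816) and Mylip (0.136) did not. The fit of only the HSS and PSS libraries called 4 higher and 2 lower, with Mylip added (adjusted p = 0.0155), where it called 40.8% of all genes. The call of Srebf2 held without each of the 9 libraries in turn. That of Insig1 ended without PSS replicate 1 or 2 (adjusted p = 0.0632 and 0.054) or HSS replicate 1, 2 or 3 (0.0651, 0.0747 and 0.0772), and that of Abca1 without PSS replicate 1, 2 or 3 (0.119, 0.0902 and 0.133) or HSS replicate 1, 2 or 3 (0.0974, 0.0982 and 0.102).

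**Figure D2:**
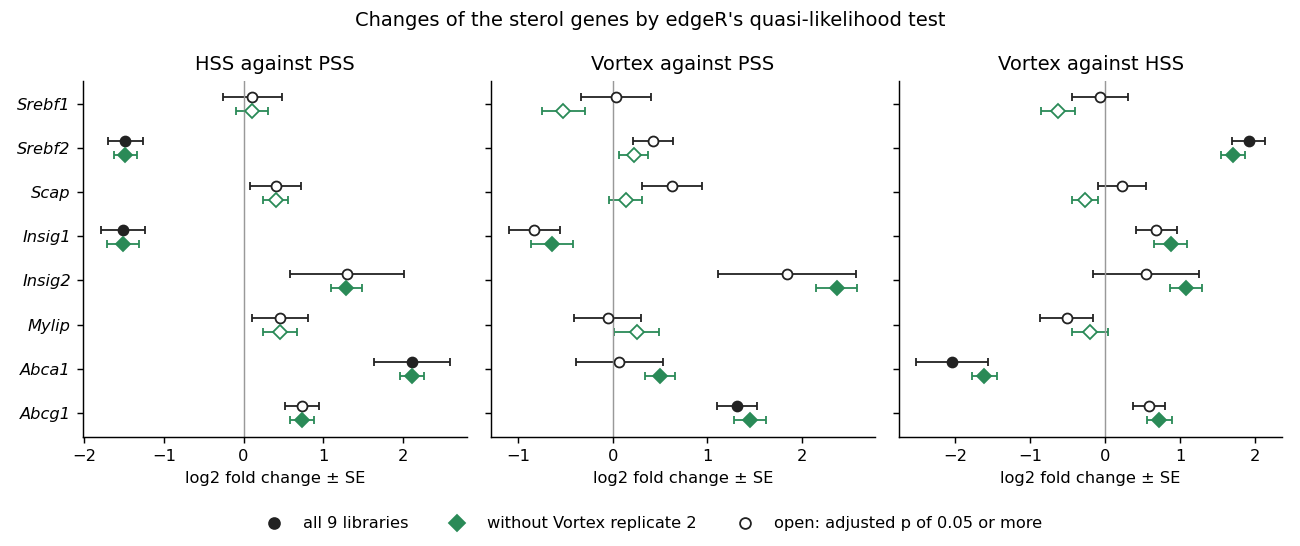
Log2 fold change with its SE (horizontal axes) of the 8 genes in the 3 comparisons, with all 9 libraries (circles) and without Vortex replicate 2 (diamonds), filled where the adjusted p was under 0.05. In HSS against PSS both fits place Srebf2 near -1.48 and Abca1 near 2.11, and the error of Insig2 shrinks to 0.20 without Vortex replicate 2, against 0.72 with it.

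Vortex against PSS addresses slow, disturbed flow. Abcg1 was the gene of the 8 that passed. It was at 47.6, 29.9 and 35.7 CPM in Vortex replicates 1, 2 and 3, against 14.9, 16.3 and 14.4 CPM in PSS. All Vortex libraries, replicate 2 included, were above all PSS libraries, and the log2 fold change was 1.31 ± 0.21 (adjusted p = 0.00703). The macrophage marker sum was 30.6 to 83.7 CPM in Vortex and 11.3 to 13.1 CPM in PSS. Cd68 was at 33.2, 7.96 and 36.6 CPM in Vortex, against 3.69 to 4.96 CPM in PSS, Csf1r at 8.64 to 17.1 CPM in Vortex, against 1.36 to 2.79 CPM in PSS, and Cd14 at 8.05 to 25.2 CPM in Vortex, against 3.36 to 4.83 CPM in PSS. Mrc1 (0.191 to 2.76 CPM in Vortex) and Lyz2 (0.189 to 10.7 CPM in Vortex) overlapped PSS, and Ptprc had 0 counts in Vortex. Their part in the result was not tested. Abca1 did not follow it with all libraries. It was at 226, 53.4 and 251 CPM in Vortex, against 175, 196 and 134 CPM in PSS, so that Vortex replicate 2 lay below PSS and the other Vortex libraries above it (log2 fold change 0.07 ± 0.46, adjusted p = 0.938). Without Vortex replicate 2 it was at 0.50 ± 0.16 (adjusted p = 0.0323), and Abcg1 at 1.45 ± 0.16 (adjusted p = 0.000154).

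Insig2 split the Vortex libraries most. It was at 245, 15.8 and 172 CPM in Vortex, against 34.1, 33.4 and 53.2 CPM in PSS. Vortex replicates 1 and 3 were the 2 highest libraries of the series for this gene and Vortex replicate 2 the lowest. The log2 fold change was 1.84 ± 0.73 (adjusted p = 0.126) with all libraries and 2.37 ± 0.22 (adjusted p = 4.32e-05) without Vortex replicate 2. Without Vortex replicate 1 it was 1.19 ± 0.73 (adjusted p = 0.266). Insig1 was at 128, 70.8 and 97.6 CPM in Vortex, against 188, 218 and 122 CPM in PSS. The groups overlapped only through Vortex replicate 1 and PSS replicate 3. Its log2 fold change of -0.83 ± 0.27 did not pass with all libraries (adjusted p = 0.0735) and passed without Vortex replicate 2 (-0.64 ± 0.22, adjusted p = 0.047) and without Vortex replicate 1 (adjusted p = 0.0291).

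Srebf2 was at 305, 448 and 311 CPM in Vortex, against 279, 303 and 210 CPM in PSS. The lowest Vortex value was just above the highest PSS value, and the log2 fold change of 0.43 ± 0.21 did not pass (adjusted p = 0.214). It was 0.22 ± 0.16 without Vortex replicate 2 (adjusted p = 0.298). Srebf1 was at 52.2, 172 and 89.3 CPM in Vortex, against 106, 117 and 82.0 CPM in PSS. Scap was at 37.4, 90.1 and 44.0 CPM in Vortex, against 39.6, 42.1 and 29.6 CPM in PSS. Mylip was at 11.0, 6.77 and 20.6 CPM in Vortex, against 13.7, 12.3 and 13.9 CPM in PSS. Vortex overlapped PSS for all of these. Their log2 fold changes were 0.04 ± 0.37, 0.63 ± 0.32 and -0.06 ± 0.35 (adjusted p = 0.96, 0.229 and 0.935), and without Vortex replicate 2 those of Srebf1 and Mylip changed sign, to -0.52 and 0.25, without passing.

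In counts, 1 of the 8 genes was higher in Vortex than in PSS, 0 were lower and 7 did not pass, where 13.4% of all tested genes were called, 8.33% higher and 5.03% lower. Vortex and PSS were apart for 2 genes that were higher and 0 that were lower, where 15.6% and 14.4% of all tested genes were apart. Without Vortex replicate 2, 3 were higher and 1 lower, where 36.3% of all tested genes were called, 19.7% higher and 16.6% lower. The edgeR fit of only the Vortex and PSS libraries called 0 of the 8 and 0.488% of all genes, with 2 of the 8 at an unadjusted p under 0.05 and an adjusted p of 0.0662 for Abcg1. DESeq2 on all libraries called 3 of the 8 and 22.1% of all genes. Of all calls 62.4% were higher in Vortex, against 41.8% with scaling by library totals in place of TMM, which moved the median log2 fold change of all genes by -0.17. Insig1 then passed as lower, at -1.01 (adjusted p = 0.0463).

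Vortex was also compared directly with HSS, the contrast between low disturbed and high laminar flow. Srebf2 was higher and Abca1 lower in Vortex. Srebf2 was at 305, 448 and 311 CPM in Vortex, against 93.1, 92.1 and 98.2 CPM in HSS, with every Vortex library over 3 times as high as any HSS library (log2 fold change 1.91 ± 0.22, adjusted p = 0.00497). Abca1 was at 226, 53.4 and 251 CPM in Vortex, against 717, 722 and 744 CPM in HSS (log2 fold change -2.04 ± 0.48, adjusted p = 0.0373). Insig1 (0.68 ± 0.27, adjusted p = 0.147) and Abcg1 (0.58 ± 0.21, adjusted p = 0.12) had groups that did not overlap, both higher in Vortex, and did not pass. Mylip was at -0.51 ± 0.35, Insig2 at 0.55 ± 0.71, Scap at 0.22 ± 0.32 and Srebf1 at -0.07 ± 0.37, with groups that overlapped and adjusted p-values of 0.392, 0.664, 0.7 and 0.927.

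Here 1 of 8 genes was higher, 1 lower and 6 did not pass, where 7.04% of all tested genes were called, 4.37% higher and 2.67% lower. The higher share of those calls was 62.1%, against 45.8% with library totals. Vortex and HSS were apart for 3 genes that were higher and 1 that was lower, where 19.5% and 16.9% of all tested genes were apart. Without Vortex replicate 2, Insig1 (adjusted p = 0.0182), Insig2 (0.00676) and Abcg1 (0.0121) were higher too, which made 4 higher and 1 lower, where 23.9% of all tested genes were called, 13.9% higher and 10% lower. edgeR on the 6 Vortex and HSS libraries alone called 1 of the 8, Srebf2 as higher, and 0.438% of all genes. Abca1 did not pass in that fit. DESeq2 on all libraries called 2 of the 8 and 17.1% of all genes. The call of Srebf2 ended without HSS replicate 1, 2 or 3 (0.062, 0.0608 and 0.0559), and that of Abca1 without PSS replicate 1, 2 or 3 (0.0763, 0.0658 and 0.0575) or HSS replicate 1, 2 or 3 (0.134, 0.129 and 0.141).

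Ratios of related genes within a library do not depend on how libraries were scaled. The plot of paired ratios shows the FPKM of one gene over that of its relative. Srebf2 to Srebf1 was 4.57, 2.05 and 2.73 in Vortex, 0.647, 0.693 and 0.685 in HSS and 2.06, 2.03 and 2.01 in PSS. Srebf2 was above Srebf1 in each Vortex and PSS library and below it in each HSS library. The mean log2 ratio in HSS differed from PSS by -1.59, with groups apart and an SD of 0.05 in HSS and 0.02 in PSS (n = 3 each, exact 2-sided permutation p = 0.1, the smallest that 3 against 3 allows).

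Insig1 to Insig2 was 0.588, 5.04 and 0.639 in Vortex, 0.738, 0.689 and 0.680 in HSS and 6.20, 7.32 and 2.59 in PSS. Insig2 exceeded Insig1 in all HSS libraries and in Vortex replicates 1 and 3, while Vortex replicate 2 lay within the PSS range. The mean log2 ratio in HSS differed from PSS by -2.80 (SD 0.06 in HSS and 0.81 in PSS, n = 3 each, exact 2-sided permutation p = 0.1). Abca1 to Abcg1 was 3.34, 1.26 and 4.96 in Vortex, 21.8, 20.6 and 18.8 in HSS and 8.26, 8.50 and 6.56 in PSS. The 3 groups did not overlap on this ratio, with HSS highest and Vortex lowest. The difference of the mean log2 ratio was 1.40 for HSS against PSS and -1.49 for Vortex against PSS (exact 2-sided permutation p = 0.1 each, n = 3 per group). Scap to Insig1 was 0.121, 0.528 and 0.187 in Vortex, 0.288, 0.333 and 0.375 in HSS and 0.0875, 0.0804 and 0.10 in PSS. Vortex and HSS were both above PSS on this ratio, by 1.36 and 1.89 in mean log2 ratio (exact 2-sided permutation p = 0.1 each, n = 3 per group). Vortex and HSS overlapped each other only through Vortex replicate 2, which lay above every HSS library. Vortex replicates 1 and 3 lay below every HSS library. For 4 such ratios and 3 comparisons no adjusted p can fall under that floor.

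**Figure D3:**
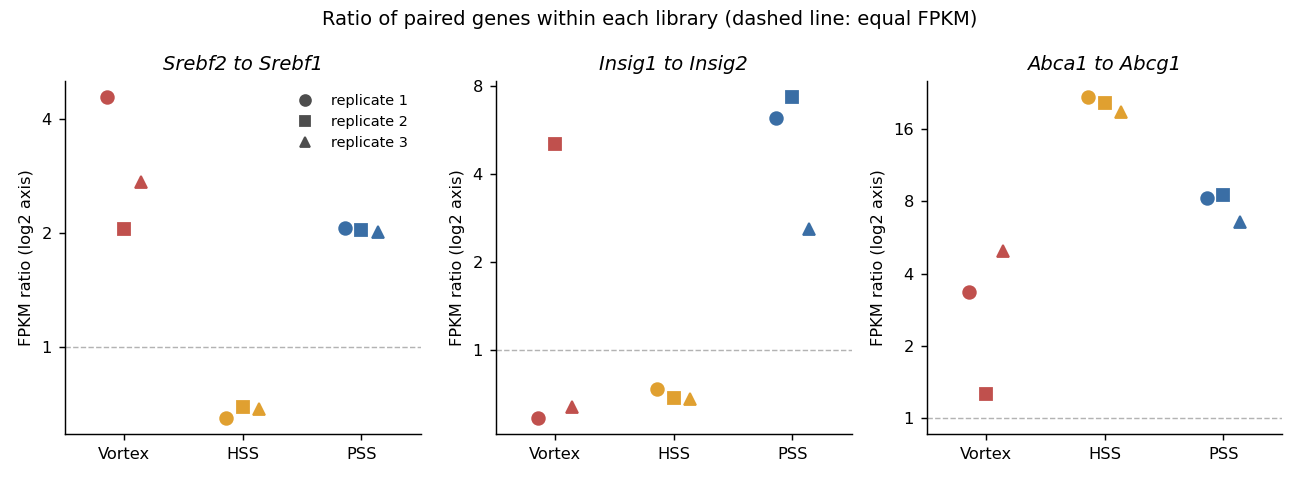
FPKM ratio (log2 vertical axes) of Srebf2 to Srebf1, Insig1 to Insig2 and Abca1 to Abcg1 in each library, with groups along the horizontal axis and replicates as symbols. The HSS points of Srebf2 to Srebf1 lie under the line of equal FPKM, at 0.647 to 0.693, and Vortex replicate 2 is the 1 Vortex library with more Insig1 than Insig2.

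Over all tested genes, the difference of Vortex replicate 2 from the other Vortex libraries ran with the base composition of the transcripts. Relative to the mean log2 CPM of Vortex replicates 1 and 3, the median gene of this library was at -1.11 in the eighth of tested genes with the lowest GC content and at 0.62 in the eighth with the highest. Srebf1, Srebf2 and Scap, with 58.4%, 57.9% and 59.1% GC, were above 92.4%, 90.9% and 94.3% of tested genes in GC content and were higher in that library, by 1.33, 0.54 and 1.15. Insig1, Insig2, Mylip and Abca1, with 46.0% to 49.6% GC, were lower by 0.66, 3.69, 1.14 and 2.16, and Abcg1, at 52.7% GC, by 0.46. The 8 genes did not all follow the medians of their eighths. Srebf2 was close to its median of 0.62, which Srebf1 and Scap exceeded. Insig2 was far below its median of -0.36, and Abca1 and Insig1 were below theirs of -0.07. Mylip and Abcg1 were lower in that library although the medians of their eighths were 0.24 and 0.39. With a smooth GC trend removed from every library, chosen after seeing the data, the same counts of the 8 genes passed in each comparison as without that removal. Srebf2 against PSS in Vortex then changed sign, to -0.02. Removal of the trend together with Vortex replicate 2 called 5 of the 8 genes in Vortex against PSS, 3 higher and 2 lower, and 37.5% of all genes (29.8% in HSS against PSS and 26.3% in Vortex against HSS), with Srebf1 at -0.77 (adjusted p = 0.0105).

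**Figure D4:**
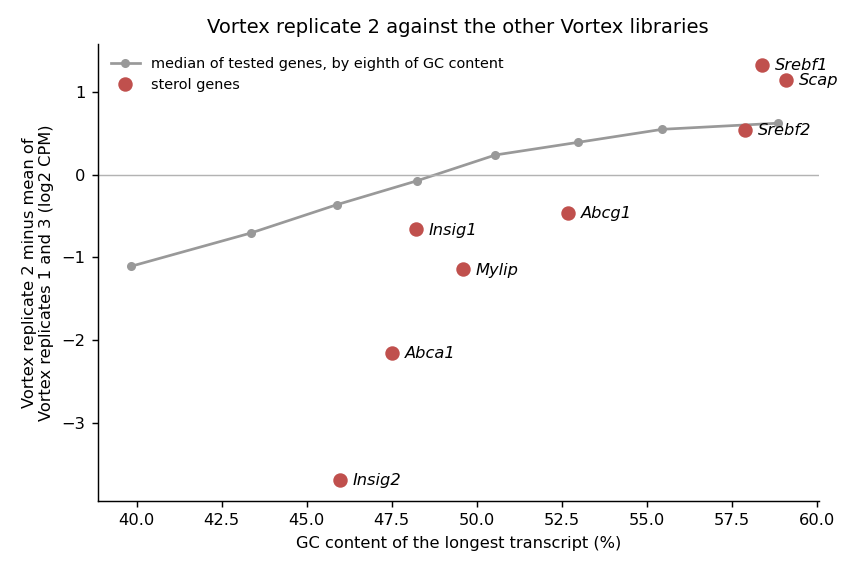
Difference in log2 CPM between Vortex replicate 2 and the mean of Vortex replicates 1 and 3 (vertical axis) against the GC content of each gene's longest transcript (horizontal axis, percent), for the 8 genes and for the median of tested genes in eighths of GC content. The 3 genes with the highest GC content lie above 0 and the other 5 below, with Insig2 at -3.69 and Abca1 at -2.16.

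The other genes of these pathways were taken from 6 lists written from general knowledge with earlier results of these data known. The 20 sterol synthesis enzymes, targets of SREBP-2, were mostly lower in HSS than in PSS, as Srebf2 and Insig1 were. Of the 20, 16 fell, 0 rose and 4 did not pass, where 3.7% of all tested genes were called lower. The median log2 fold change was -1.64, where that of all tested genes was -0.00. In Vortex against PSS 5 fell, 0 rose and 15 did not pass (median -0.55, against 0.11 for all genes), where 5.03% of all genes were called lower. In Vortex against HSS 7 were higher, 0 lower and 13 did not pass (median 0.77, against 0.10), where 4.37% of all genes were called higher. Without Vortex replicate 2 these counts were 18 lower, 16 lower and 13 higher, where 13.7% and 16.6% of all genes were called lower and 13.9% higher. Without any 1 HSS library edgeR called 7 of the 20 in HSS against PSS, 2 in Vortex against PSS and 0 in Vortex against HSS. The shares of all genes were then 1.83%, 1.84% and 1.74% in HSS against PSS without HSS replicate 1, 2 and 3. In the comparisons with Vortex they were 6.81% to 6.86% (against PSS) and 0.154% to 0.159% (against HSS). Without PSS replicate 1, 2 or 3 it called 9, 10 and 13 in HSS against PSS, 2, 3 and 3 in Vortex against PSS and 4, 5 and 5 in Vortex against HSS, where the shares of all genes were 1.92%, 2.84% and 3.11% in HSS against PSS, 3.18%, 5.58% and 6.62% in Vortex against PSS and 2.03%, 3.6% and 6.58% in Vortex against HSS. Cyp51, the lanosterol demethylase, averaged 114 ± 32.2 CPM in Vortex, 37.1 ± 1.47 CPM in HSS and 225 ± 21.1 CPM in PSS (SD, n = 3 each), and was called in all 3 comparisons.

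Counts in the other lists are to be read against the shares of all genes called with all libraries, 7.87% in HSS against PSS, 13.4% in Vortex against PSS and 7.04% in Vortex against HSS. Nothing particular to a list is read from its count. Of 16 fatty acid genes driven by SREBP-1, 1 fell in HSS against PSS, 0 rose and 15 did not pass (median -0.43). Elovl5, which lengthens polyunsaturated fatty acids, was at -0.82 ± 0.20 (adjusted p = 0.0365). In Vortex against PSS 2 fell and 0 rose (median -0.18), among them Elovl6, an elongase of saturated fatty acids (-1.34 ± 0.34, adjusted p = 0.0325). In Vortex against HSS 1 was higher, the desaturase gene Fads1 (1.19 ± 0.26, adjusted p = 0.0303). Of 16 partners of SCAP, INSIG and SREBP processing, 0 passed in HSS against PSS by edgeR (median 0.14), with 3 at an unadjusted p under 0.05 and 2 called by DESeq2. By edgeR 2 were higher in Vortex than in PSS, among them Aup1, a partner in degradation at the endoplasmic reticulum (1.11 ± 0.22, adjusted p = 0.0137). Aup1 was also higher in Vortex than in HSS (adjusted p = 0.0381).

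The LXR list had 10 of 13 genes tested, with Rxrg, Abcg5 and Abcg8 too low. In HSS against PSS 1 rose, 1 fell and 8 did not pass (median 0.32). Abca2, a transporter of endolysosomes, was at 1.23 ± 0.26 (adjusted p = 0.0255), and Arl4c, a small GTPase and known LXR target, at -1.75 ± 0.24 (adjusted p = 0.0046), opposite to Abca1. Nr1h3, the gene of LXR alpha, had 50, 60 and 70 counts in HSS, against 21, 14 and 25 counts in PSS (1.68 ± 0.46, adjusted p = 0.0602). In Vortex against PSS 2 rose, Abca2 (1.22 ± 0.26, adjusted p = 0.0188) and Rxrb, a partner receptor of LXR (0.75 ± 0.20, adjusted p = 0.0372), and in Vortex against HSS 1 was higher, Arl4c (1.51 ± 0.24, adjusted p = 0.0138). Arl4c no longer passed there without any 1 HSS library. The oxysterol list had 3 of 5 genes tested, of which edgeR called 0 in HSS against PSS (2 at an unadjusted p under 0.05, 1 by DESeq2) and 0 in Vortex against HSS (0 unadjusted, 0 by DESeq2). Ch25h, which makes 25-hydroxycholesterol, had 26.9, 27.8 and 26.9 CPM in HSS, against 5.20, 4.14 and 3.03 CPM in PSS, and narrowly did not pass (2.72 ± 0.73, adjusted p = 0.0544). In Vortex it was at 8.01, 2.95 and 33.2 CPM, a wide spread. Cyp27a1, which makes 27-hydroxycholesterol, was higher in Vortex than in PSS (0.79 ± 0.22, adjusted p = 0.047).

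Of 18 genes of cholesterol uptake, transport and esterification, 1 rose, 1 fell and 16 did not pass in HSS against PSS (median 0.13). Lipa, the lysosomal lipase that frees cholesterol from taken-up esters, was at 1.39 ± 0.17 (adjusted p = 0.00302), and Stard4, a sterol carrier and SREBP-2 target, at -1.61 ± 0.17 (adjusted p = 0.00158). In Vortex against PSS 4 rose and 1 fell (median 0.62). Scarb1, the receptor for high density lipoprotein, was at 160, 150 and 129 CPM in Vortex, against 51.8, 61.2 and 46.7 CPM in PSS (1.46 ± 0.18, adjusted p = 0.00319). Npc1, which moves cholesterol out of lysosomes, was at 1.25 ± 0.24 (adjusted p = 0.0116). In Vortex against HSS 3 were higher, Scarb1 (adjusted p = 0.0157), Stard4 (0.0316) and Soat1, which esterifies cholesterol (0.0348), and Lipa was lower (0.0423).

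Without Vortex replicate 2, where 29.1%, 36.3% and 23.9% of all genes were called in HSS against PSS, Vortex against PSS and Vortex against HSS, the fatty acid list had 2 higher and 7 lower in HSS against PSS, 2 higher and 5 lower in Vortex against PSS and 2 higher in Vortex against HSS. The SCAP and INSIG partners then had 2 higher and 2 lower, 3 higher and 3 lower, and 1 higher and 2 lower in the same order of comparisons. The LXR list had 3 higher and 3 lower, 3 higher and 2 lower, and 2 higher and 1 lower. The uptake list had 6 higher and 2 lower, 9 higher and 1 lower, and 10 higher and 1 lower. The oxysterol list had 2, 3 and 0 higher and 0 lower. In the other direction, without any 1 PSS or HSS library no fatty acid gene passed in HSS against PSS by edgeR, and without any 1 HSS library none of these 5 lists had a call in Vortex against HSS.

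**Figure D5:**
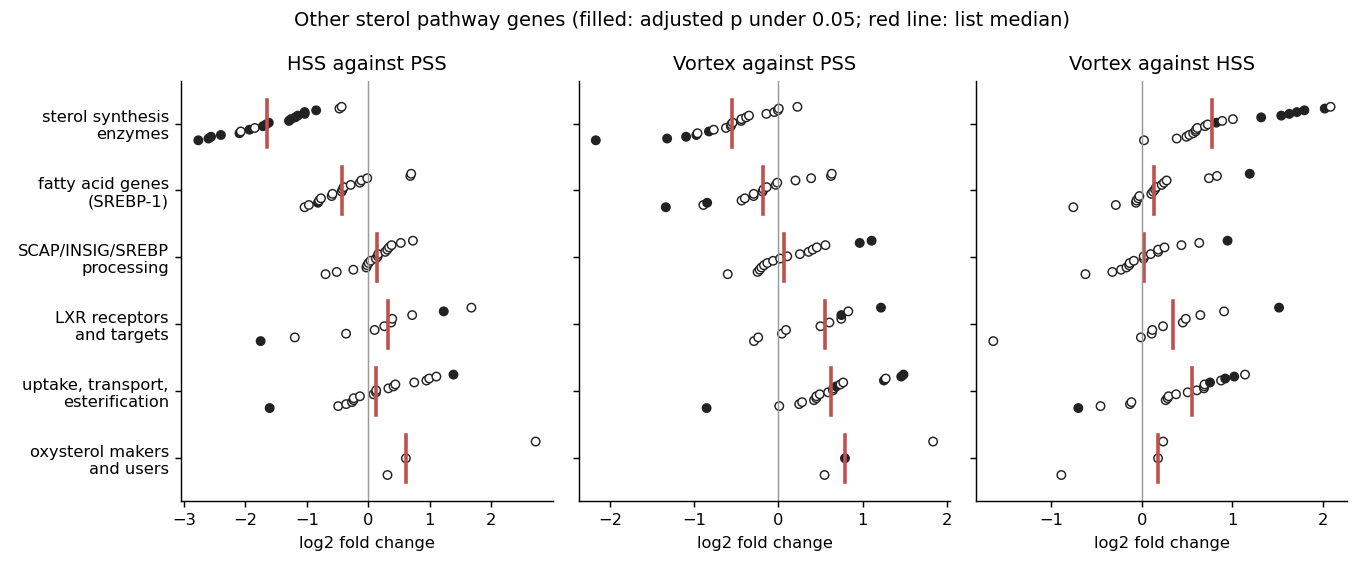
Log2 fold change (horizontal axes) of each tested gene of the 6 lists in the 3 comparisons, filled where the adjusted p was under 0.05, with the list median as a red line. Sterol synthesis enzymes have a median of -1.64 in HSS against PSS, -0.55 in Vortex against PSS and 0.77 in Vortex against HSS.

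The genes whose levels ran most like those of the 8 across the 9 libraries were found by the root mean square difference of log2 CPM, with each gene centred on its own mean, among 10525 tested genes averaging 5 CPM or more. All values come from the same 9 libraries and share their depth and base composition. The nearest genes were picked for the smallest differences, so their lying under the median is given by that choice. The nearest gene to Abcg1 was Npc1, with a difference of 0.10, where the median gene differed by 0.68. The nearest to Abca1 were Hlf (0.11) and Mx1 (0.15), against a median of 1.29. Those to Srebf2 were Pitpnc1 (0.15) and Akap12 (0.20), with a median of 0.91, and those to Insig1 were Rnf152 (0.18) and Sox11 (0.22), with a median of 0.81. Insig2 had Apobec1 (0.25), Mylip had Prkaa1 (0.16), Srebf1 had Dnmt1 (0.05) and Scap had Ppp1r16a (0.07). Among the 8 genes themselves the closest pair was Srebf1 and Scap, at 0.30, and the farthest Srebf2 and Abca1, at 2.00.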

How the data were processed

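Polyadenylated RNA from 9 bEnd.3 libraries was measured. The authors deposited 1 table of raw counts per gene, whole numbers with no normalization, and FPKM values per gene, so named in the file headers. HISAT2, HTSeq 0.13.5 and build GRCm39 are named per the submitters' processing notes. Strand settings are not given in the sources used here. Columns with no sample numbered 0.

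From the counts, edgeR 4.0.16 (R 4.3.3) filtered genes with filterByExpr, scaled libraries by TMM and fitted 1 mean per group to all 9 libraries (robust quasi-likelihood F test, Benjamini-Hochberg adjustment). The SE was taken as the size of the log2 fold change over the root of F. Log2 CPM used a prior count of 2. The procedure was tested on simulated data in which all groups shared the spread of each gene. Groups of unlike spread, as seen here, were not simulated. Exact permutation tests of 3 against 3 libraries cannot give a p under 0.1. Alternatives were DESeq2 1.42.0, limma 3.58.1 (voom, and log2 FPKM with pseudocounts of 1 and 0.1), other scalings and filters, a replicate block, compared libraries alone and each library left out. GC content, from the longest GENCODE M21 (GRCm38) transcript, matched 98.5% of tested genes by ID, and its trend was removed by lowess with a span of 0.3.

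The 8 genes and all lists were chosen with earlier results of these data known. Other genes were named where they were among the 3 with the smallest p in a list and comparison or the 3 with the nearest profile. Lipa and Cyp51, past that rank in some comparisons, were named there after their values were seen. Not all genes within these ranks are reported here. Summed markers were 6.48 to 20.6, 4.43 to 5.10 and 7.02 to 7.20 CPM for epithelium in Vortex, HSS and PSS, 1.09 to 2.08, 1.79 to 2.19 and 1.95 to 2.17 CPM for smooth muscle, and 115 to 1062, 1090 to 1151 and 676 to 908 CPM for fibroblasts (7 of 8 markers found). The fibroblast sum was 115 CPM in Vortex replicate 2, the library with the highest endothelial sum, and 1062 and 925 CPM in Vortex replicates 1 and 3.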

Additional observations from a re-analysis of the deposited data

How the results depend on the processing

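Calls of the 8 genes numbered 3 in HSS against PSS, 1 in Vortex against PSS and 2 in Vortex against HSS. Leaving out 1 library gave 1 to 5, 1 to 4 and 0 to 5 calls, and 285 to 4730, 519 to 5888 and 25 to 3887 over all genes, where all libraries gave 1242, 2107 and 1111. The compared libraries alone gave 6, 0 and 1 calls among the 8 and 6233, 74 and 66 over all genes. DESeq2 gave 3 among the 8 in Vortex against PSS, and 2456, 3489 and 2700 over all genes. Library totals and limma on log2(FPKM + 1) or log2(FPKM + 0.1) gave 2 among the 8 in Vortex against PSS. With only genes under 1 count filtered, 713 genes passed in Vortex against HSS. With the GC trend removed and Vortex replicate 2 left out, an alternative added after seeing the data, 5, 5 and 6 of the 8 and 4840, 6093 and 4262 of all genes passed. The causes were not tested.

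A replicate block gave 772, 1258 and 357 calls over all genes and 2, 1 and 1 among the 8, with Abca1 not passing in HSS against PSS (adjusted p = 0.062) or Vortex against HSS (0.0755). The samples share only a number: deviations from the group mean correlated at -0.12 to 0.12 between libraries of the same number and -0.16 to 0.12 between others.

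Sign changes were seen in values that had not passed. Srebf1 in Vortex against PSS, 0.04, became -0.14 with library totals, -0.012 with the loosest filter, -0.056 with the block, -0.11 with voom, -0.26 and -0.29 on log2 FPKM, -0.48 with the GC trend removed and -0.77 also without Vortex replicate 2. Abca1 there, 0.07, became -0.095 with library totals, -0.067 with the block, -0.21 with voom and -0.32 and -0.37 on log2 FPKM. With the GC trend removed, and then also without Vortex replicate 2, Srebf1 in HSS against PSS became -0.086 and -0.090, Srebf2 in Vortex against PSS -0.016 and -0.015, and Scap in Vortex against HSS -0.092 and -0.30. With both changes Scap and Mylip in Vortex against PSS became -0.097 and 0.19. In Vortex against HSS Insig2 became -0.19 with voom and -0.24 and -0.31 on log2 FPKM, and Scap -0.0088 and -0.021 on log2 FPKM.

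Leaving out 1 library gave, for Srebf1, -0.026 to 0.22 in HSS against PSS, -0.52 to 0.31 in Vortex against PSS and -0.63 to 0.22 in Vortex against HSS. It gave -0.59 to 0.25 for Mylip and -0.28 to 0.50 for Abca1 in Vortex against PSS, and -0.27 to 0.43 for Scap and -0.072 to 1.08 for Insig2 in Vortex against HSS. The 8 genes had 142 counts or more in every library. Each group had 3 libraries of unknown independence, and 1 Vortex library stood apart.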
